A study of Mus musculus with 2 samples.

Results

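The 10 genes described here encode NUFIP1, its namesake NUFIP2, the zinc-finger proteins ZNHIT3 and ZNHIT6, the R2TP subunits RUVBL1, RUVBL2, RPAP3 and PIH1D1, and the box C/D proteins NOP58 and FBL. They were picked by function and matched by symbol, and all 10 had a row among the 21983 gene entries of the deposited count table. RNA-seq was run on 14837, a mouse pancreatic ductal adenocarcinoma (PDAC) cell line of C57BL/6 origin, after 48 h in conditioned medium, that is, medium in which other cells had grown. Cells had been kept in DMEM with 10% FBS and penicillin. In 1 library the medium was that of CAFs, fibroblasts associated with the cancer, and in the other that of 14837 cells. One value column bore a name that fitted the CAF library, and the other column's name fitted neither library. Only the CAF-medium library was therefore used, the media were not compared, and the values below are levels within 1 library with no replicate.

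Small nucleolar RNAs of the box C/D class guide ribose methylation of ribosomal RNA. Each is wrapped by the core proteins SNU13, NOP56, NOP58 and the methyltransferase fibrillarin (FBL). In work on yeast and human cells, NUFIP1 and ZNHIT3 form a platform on which SNU13 is held, ZNHIT6 acts at an early step, and the chaperone complex R2TP, working with HSP90, helps the other proteins to load. In human cells NUFIP1 is further known to mark ribosomes for autophagy under starvation, a route that yields nucleosides, and secreted nucleosides are the subject of the series' title. NUFIP2 shares the name because it too binds the RNA-binding protein FMRP, and it is known from stress granules rather than from snoRNP assembly.

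The RNAs that this machinery packages can lie inside the genes of its own proteins. Of the 10 genes, Nop58 (chromosome 1, 59684971 to 59719044, plus strand, mm10) was the 1 with annotated snoRNAs inside it on its own strand, the strand searched, and it held 4, each within an intron of its longest protein-coding transcript. Gm26293 also lay in an exon of another annotated Nop58 transcript. Snord70 lay in intron 2, Gm26293 in intron 3, Gm26287 in intron 8 and Snord11 in intron 9. They are shown because they are the substrate of the assembly pathway, with the core of the box C motif (TGATG, looked for in the first 20 bases) and the box D motif (CTGA, in the last 20 bases) in capitals. Sequences are GENCODE transcripts of mm10, written as DNA and read 5′ to 3′.
Snord70: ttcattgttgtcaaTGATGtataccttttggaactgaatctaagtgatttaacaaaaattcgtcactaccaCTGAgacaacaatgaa
Gm26293: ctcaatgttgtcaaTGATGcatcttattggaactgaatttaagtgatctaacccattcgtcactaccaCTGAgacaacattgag
Gm26287: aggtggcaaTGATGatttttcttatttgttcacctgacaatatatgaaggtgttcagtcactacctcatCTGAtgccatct
Snord11: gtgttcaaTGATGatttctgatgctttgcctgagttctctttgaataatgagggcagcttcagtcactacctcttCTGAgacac

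All 4 carried both motifs on the RNA strand, against 23.6% of the 1507 annotated mouse snoRNAs, which include the box H/ACA class. The 2 upstream copies resembled each other most, with 83.9% identity between Snord70 and Gm26293 over 87 aligned positions. Gm26287 and Snord11 were 66.7% identical, and pairs across the 2 groups 55.4% to 57.7%. Nop56, the paralogous core gene, held 5 snoRNAs inside it, of which 3 carried both motifs. Levels of the snoRNAs themselves were not analysed here.

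**Figure D1:**
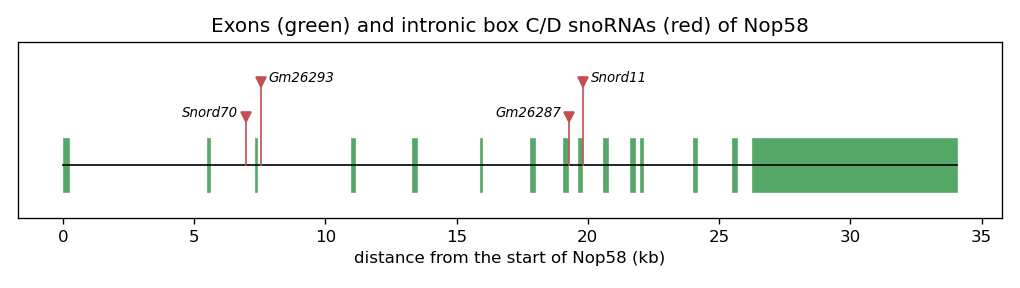
Map of Nop58 drawn to scale, with distance from the gene's start in kb on the x axis, the 15 exons of its longest protein-coding transcript as green blocks and the 4 snoRNAs as red markers. The snoRNAs sit in pairs, 6963 and 7538 bases from the start and 19287 and 19819 bases from it, and the last exon is 7774 bases long.

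The library held 21269197 counts. Levels are given as counts per 1000000 (CPM), and brackets hold exact Poisson 95% intervals, which cover counting error only and not the spread between cultures. The median gene, taken over the 11569 entries with at least 10 counts, stood at 37.9 CPM. Keratins mark the cells as epithelial, with Krt18, Krt8, Krt7 and Krt19 at 1819, 797, 550.2 and 418 CPM and Cdh1 at 370.0 CPM. Of the 7 ductal markers these 5 exceeded the median gene. Sox9, at 17.2 CPM (365 counts), and the ductal adhesion gene Epcam, at 0.094 CPM (2 counts), were below it. Of 7 fibroblast markers, 4 were listed at 0 (Col1a2, Dcn, Lum and Thy1), and Pdgfra was the highest at 34.2 CPM, with 29 counts for Col1a1 and 1 for Pdgfrb. Summed levels came to 3972 CPM for the 7 ductal markers, 35.6 CPM for the fibroblast markers and 5.78 CPM for 4 leukocyte markers, with 121 counts from Cd68, 1 each from Ptprc and Adgre1 and none from Cd3e. Of 3 endothelial markers, Pecam1 had 5 counts and Cdh5 and Kdr were listed at 0. Of 4 acinar markers, Cel had 16 counts and Cpa1, Pnlip and Ptf1a were listed at 0, as were the 3 endocrine markers Ins1, Ins2 and Gcg.

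All 10 genes had at least 10 counts, as did 52.6% of all entries, and together they held 0.137% of the library. Of the 10 genes, 8 exceeded the median gene, as did 26.3% of all entries and 50.0% of entries with at least 10 counts. Their levels spanned 11.5 to 537 CPM, with a median of 77.6 CPM. The set was chosen by function, so these shares describe it and test nothing.

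**Figure D2:**
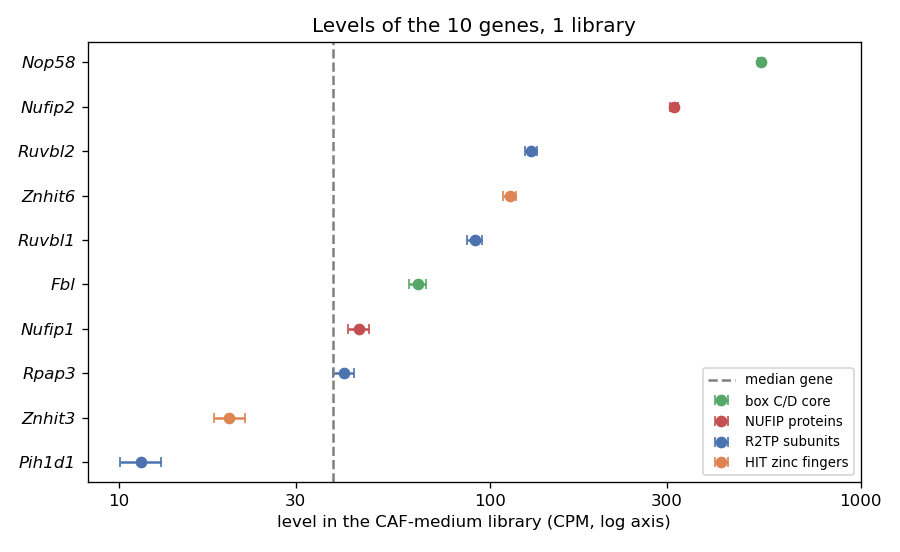
Level of each gene in the CAF-medium library in CPM on a log axis, coloured by role, with exact Poisson 95% intervals as bars and the median gene as a dashed line. Nop58 and Nufip2 lie highest, at 537 and 314 CPM, and Znhit3 and Pih1d1 lie below the median gene, at 19.9 and 11.5 CPM.

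Nufip1 (chromosome 14, 76110891 to 76137379, plus strand, 10 exons) stood close to the middle of the expressed genes. It had 943 counts, or 44.3 CPM (41.6 to 47.3), which was 1.17 times the median gene and above 53.9% of genes with at least 10 counts. Per kilobase of coding sequence it stood at 30.5 CPM, 1.2 times the median on that scale. None of the 245 windows of 64 bases along its transcript was found in another gene, and no exon of another gene overlapped it.

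The HIT-type zinc-finger genes Znhit3 and Znhit6 lay on either side of Nufip1 in CPM. Znhit3, whose protein binds NUFIP1 directly (chromosome 11, 84910950 to 84916366, minus strand), reached 19.9 CPM (18.0 to 21.9) from 423 counts. Znhit6 (chromosome 3, 145576205 to 145604795, plus strand) reached 113 CPM (109 to 118) from 2408 counts and exceeded 79.1% of genes with at least 10 counts. Since a longer RNA yields more counts, genes are compared below per kilobase of coding sequence. Coding sequence is only part of an RNA, so this scale does not take in its full length. The longest transcript of Nufip1 has 3974 bases. Znhit3 has a short coding sequence of 453 bases against 1452 for Nufip1, and on that scale it stood at 43.9 CPM per kilobase, above Nufip1.

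The direction of the Nufip1 and Znhit3 difference depended on the length used. By counts alone Nufip1 had 2.23 times as many as Znhit3 (1.99 to 2.51), but 0.696 times as many per kilobase of coding sequence (0.619 to 0.782) and 0.56 times per kilobase of the longest transcript. Per kilobase of all exons the ratio was 1.2. Nufip1 was lower than Znhit6 on every scale computed, at 0.372 times per kilobase of coding sequence (0.345 to 0.401). Exons of Myo19, on the opposite strand, overlapped 13% of the exonic bases of Znhit3, and with the strand setting not known their reads cannot be told apart.

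The 4 R2TP subunits were uneven, with the adaptor genes lower than the ATPase genes. Of the adaptors, Rpap3 was close to the median gene in CPM, at 1.07 times its level, and Pih1d1 below it, at 0.303 times. RUVBL1 and RUVBL2 are related AAA+ ATPases that form the ring of the complex and also serve chromatin remodellers. Ruvbl1 (chromosome 6, 88465409 to 88497572, plus strand) reached 91.1 CPM (87.1 to 95.2) from 1937 counts, and Ruvbl2 (chromosome 7, 45421760 to 45438096, minus strand) 129 CPM (125 to 134) from 2750 counts. RPAP3, which tethers HSP90 to the ring, and PIH1D1, which recruits clients, form the other module. Rpap3 (chromosome 15, 97675097 to 97705825, minus strand) reached 40.4 CPM (37.8 to 43.2) from 860 counts. Pih1d1 (chromosome 7, 45154303 to 45160065, plus strand) reached 11.5 CPM (10.1 to 13.01) from 244 counts, the lowest of the 10 on each of the 3 scales in the order computed.

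Both ATPase genes exceeded both adaptor genes per length. Per kilobase of coding sequence Ruvbl2 and Ruvbl1 stood at 93.1 and 66.6 CPM, and Rpap3 and Pih1d1 at 20.4 and 13.2 CPM. Ruvbl1 had 3.26 times the level of Rpap3 on this scale (3.01 to 3.54), and 3.05 times per kilobase of the longest transcript. Within the adaptor module, Rpap3 had 1.55 times the level of Pih1d1 (1.34 to 1.79).

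Between the ATPases themselves the direction depended on the length used. Ruvbl1 had 0.715 times the level of Ruvbl2 per kilobase of coding sequence (0.674 to 0.758), 0.972 times per kilobase of the longest transcript (0.917 to 1.03) and 1.08 times per kilobase of all exons. Both counts carry uncertainty beyond sampling. Of the windows of Ruvbl1, 50.5% were also found in the processed pseudogene Gm5837, and 15.4% of the exonic bases of Ruvbl2 overlapped exons of Gys1 or Lhb on the other strand. Exons of Aldh16a1 likewise overlapped 7.38% of those of Pih1d1. The part of these overlaps in the ratios was not tested.

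By counts and per kilobase of coding sequence, the transcripts of the 2 core proteins were far apart in level. NOP58 is a scaffold of the box C/D particle and FBL its methyltransferase. Nop58 had 11432 counts, or 537 CPM (528 to 547), ranked 217th of all entries and exceeded 98.1% of genes with at least 10 counts. Fbl (chromosome 7, 28169710 to 28179269, plus strand) reached 64.04 CPM (60.7 to 67.5) from 1362 counts, 1.69 times the median gene. Nop58 had 5.12 times the level of Fbl per kilobase of coding sequence (4.84 to 5.42), and 2.13 times per kilobase of the longest transcript (2.01 to 2.25). The longest transcript of Fbl has 2411 bases, but its longest protein-coding one has 1197, whereas for Nop58 both have 9507. The ratio of 2.13 thus rests on the 2411 bases, and the shorter length would bring the 2 genes much closer. The ratio on it was not computed, so a difference per length of protein-coding transcript is not shown here.

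Of the 10 genes, Fbl had the largest share of its sequence in common with other genes. Of its 71 transcript windows, 49 were found in other genes, 48 of them in transcripts of Tulp4 and 46 in the pseudogene Gm5812. Tulp4 itself was listed with 3199 counts, or 150.4 CPM. How reads with several matches were counted is not given in the sources used here, and their part in the level of Fbl was not tested. The length of Nop58 is uncertain too, since its longest transcript has 9507 bases and its coding sequence 1608.

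The other core genes, which are outside the 10, also stood above Fbl per length. Per kilobase of coding sequence Nop58, Nop56 and Snu13 stood at 334, 305 and 465 CPM and Fbl at 65.3 CPM. Nop56 had 11296 counts, or 531 CPM (521 to 541), and Snu13, whose protein binds the RNA first, 3799 counts, or 179 CPM (173 to 184). By counts Nop58 and Nop56 did not differ beyond counting error, at a ratio of 1.01 (0.986 to 1.04). Per kilobase of coding sequence the ratio was 1.1 (1.07 to 1.12), and per kilobase of the longest transcript, where 9507 bases are set against 3627, it was 0.386. The longest protein-coding transcript of Nop56 has 1877 bases. That length would take the ratio further below 0.386, and the ratio on it was not computed. Fbl had 0.14 times the level of Snu13 per kilobase of coding sequence (0.132 to 0.149) and 0.309 times per kilobase of the longest transcript (0.290 to 0.329). The coding sequence of Snu13 has 384 bases and its longest transcript 2077, so the size of this difference depends on the length used. Nop56 and Snu13 shared 36.8% and 15.9% of their windows with other genes, chiefly processed pseudogenes.

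Nufip2 (chromosome 11, 77686155 to 77741921, plus strand) stood well above Nufip1. It reached 314 CPM (306 to 322) from 6678 counts and exceeded 94.98% of genes with at least 10 counts. Nufip1 had 0.207 times its level per kilobase of coding sequence (0.193 to 0.222) and 0.183 times per kilobase of the longest transcript (0.171 to 0.196). Neither gene shared windows with others.

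**Figure D3:**
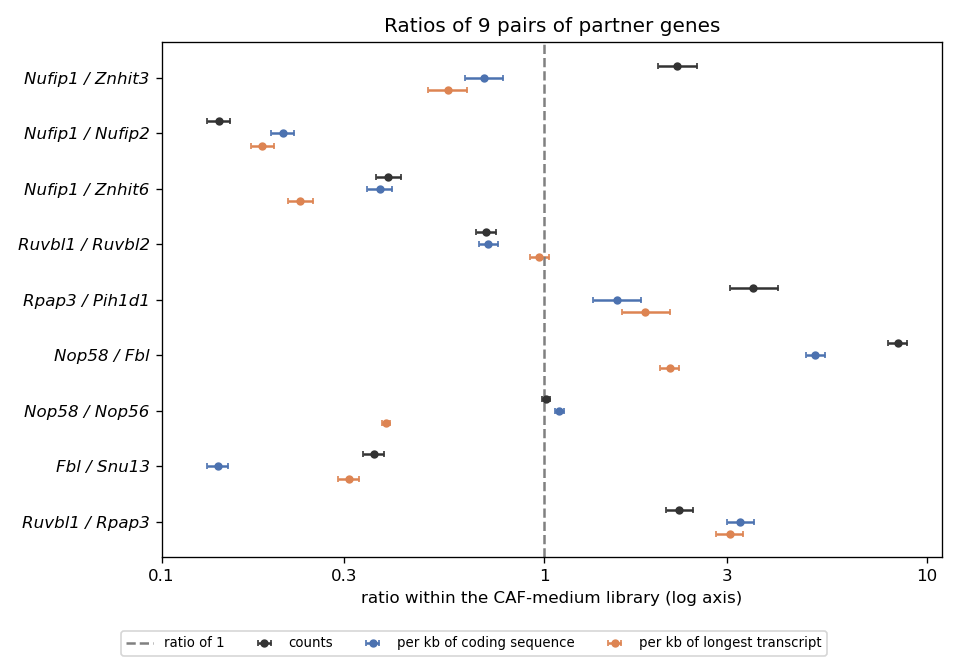
Ratio of the first gene to the second for 9 pairs, on a log axis, by counts and per kilobase of coding sequence or of the longest transcript, with exact binomial 95% intervals as bars and a dashed line at 1. Nufip1 over Znhit3 lies right of the line by counts, at 2.23, and left of it per kilobase, at 0.696 and 0.56, while Nop58 over Fbl lies right of it on each of the 3. The longest transcript of Fbl is longer than its longest protein-coding one, for which no ratio is drawn.

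Put in order per kilobase of coding sequence, the genes ran Nop58, Nufip2, Ruvbl2, Znhit6, Ruvbl1, Fbl, Znhit3, Nufip1, Rpap3 and Pih1d1, with levels of 334, 147, 93.1, 82.0, 66.6, 65.3, 43.9, 30.5, 20.4 and 13.2 CPM per kilobase. Only Ruvbl1 and Fbl, neighbours in this order, did not differ beyond counting error, at a ratio of 1.02 (0.951 to 1.09). In the order by CPM the single such pair was Nufip1 and Rpap3, with a ratio of 1.1 (0.999 to 1.2). On the coding scale 8 of the 10 exceeded the median gene of 25.4 CPM per kilobase, as did 26.3% of entries with a coding length. That median was taken over entries with at least 10 counts, of which by definition no more than 50% exceed it. Those below it were Rpap3 and Pih1d1, so Znhit3 and Rpap3 changed sides of the median between the 2 scales.

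**Figure D4:**
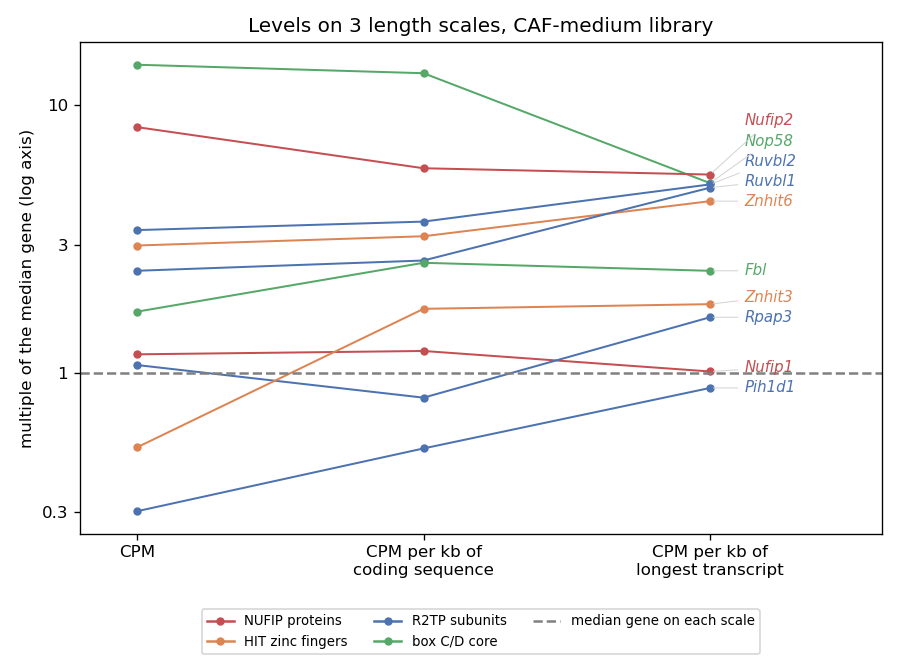
Level of each gene as a multiple of the median gene, on a log axis, in CPM, per kilobase of coding sequence and per kilobase of the longest transcript, with 1 line per gene coloured by role. Nop58 stands at 13.2 times the median per kilobase of coding sequence and at 5.11 times per kilobase of its longest transcript, whereas Nufip1 stays between 1.01 and 1.2.

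Genes of related complexes were read from lists of pathway members, with no test. Their levels are in CPM, which favours long genes, so the number of each list above the median gene is also given per kilobase of coding sequence. Of all entries 26.3% exceeded the median gene in CPM, as did 50.0% of those with at least 10 counts. Per kilobase of coding sequence 26.3% of entries with a coding length did. By definition, no more than 50% of those with at least 10 counts did on that scale. The chaperone genes Hsp90ab1 and Hsp90aa1 and Stip1, the adaptor between HSP70 and HSP90, stood at 1962, 944 and 496 CPM, and 55% of the windows of Hsp90aa1 were shared. Of the 7 HSP90 and cochaperone genes analysed, 5 exceeded the median gene on either scale. Their median was 140.0 CPM, or 318 CPM with a minimum of 100 counts and 64.5 CPM without genes that share 10% or more of their windows. The relatives of PIH1D1 and RPAP3 in this list were low, with Spag1 at 159 counts and Pih1d2 the lowest at 39 counts.

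The prefoldin-like module, which binds R2TP in mammalian cells, had 5 of 7 genes above the median gene, or 6 of 7 per kilobase of coding sequence, and a median of 58.7 CPM. It was led by Polr2e, Pfdn2 and Pfdn6 at 153, 139.5 and 88.6 CPM, and Uxt was lowest at 9.07 CPM, with 33.3% of its windows shared. Uri1, the scaffold of the module, stood at 58.7 CPM. None of the 4 other HIT-finger genes exceeded the median gene in CPM, and Znhit1, Znhit2, Ddx59 and Ino80b stood at 35.3, 22.6, 12.2 and 10.6 CPM. These 4 stood, per kilobase of coding sequence, at 74.5, 18.9, 6.58 and 9.40 CPM, with Znhit6 at 82.0 and Znhit3 at 43.9 CPM, so that Znhit1, 28.4% of whose exonic bases overlap Plod3, lay between the pair and was the 1 of the 4 above the median on that scale.

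The H/ACA particle, the other snoRNP class, had 5 of 6 genes above the median gene on either scale and a median of 68.0 CPM. Gar1, Dkc1 and Nhp2, which are core proteins, stood at 225, 108 and 73.3 CPM, and the assembly factor Shq1 was lowest at 8.6 CPM. All 4 box C/D core genes, of which Nop58 and Fbl are 2, exceeded the median gene on either scale. Their median was 355 CPM, and with the genes of 10% or more shared windows left out Nop58 alone remained. Among factors of snoRNA maturation and transport, 6 of 9 genes exceeded the median gene on either scale, led in CPM by Nolc1, Xpo1 and Ncbp1 at 432, 367 and 220.3 CPM. Taf9 was lowest at 18 counts, with 73.8% of its exonic bases in exons of Ak6.

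Proteins of the U3 processome, which is built on the box C/D RNA U3, had 17 of 18 genes above the median gene, or 14 of 18 per kilobase of coding sequence, and a median of 117 CPM. Wdr43, Wdr3 and Heatr1 led at 234, 215 and 180.1 CPM, and Dcaf13 was lowest at 31.3 CPM. All 10 listed partners of NUFIP2 in FMRP and stress granule complexes exceeded the median gene on either scale, and their median was 257 CPM. They were led by Caprin1, Ubap2l and G3bp1 at 568, 474 and 356 CPM, and the lowest was Rc3h1 at 86.2 CPM. Rc3h1 stood at only 1.003 times the median gene per kilobase of coding sequence, and at 0.708 times per kilobase of the longest transcript.

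Other clients of R2TP include the PIKK kinases, which the TTT complex brings to it, and RUVBL1 and RUVBL2 are subunits of chromatin complexes. Of 9 genes in the TTT and PIKK list, 8 exceeded the median gene in CPM but only 2, Trrap and Smg1, per kilobase of coding sequence. In CPM Trrap, Smg1 and Mtor led at 469, 336 and 97.3, and Telo2, a TTT subunit, was lowest at 19.5, with a list median of 68.4 CPM. On the coding scale Trrap, Smg1 and Tti2 led at 40.5, 30.6 and 24.4 CPM, Mtor stood at 12.7 CPM and the kinase gene Prkdc was lowest at 3.83 CPM. In the chromatin list 8 of 14 exceeded the median gene on either scale, in CPM near the 50.0% of entries with at least 10 counts. The leading genes differed between the scales. In CPM Ep400, Nfrkb and Ino80 led at 222, 114 and 97.9, with a list median of 52.3 CPM, whereas per kilobase of coding sequence Actl6a and Vps72 led at 66.5 and 64.2 CPM and Ep400 and Ino80, at 24.4 and 20.9 CPM, were below the median gene. Srcap was lowest on either scale, at 5.74 CPM, with 65.0% of its exonic bases in exons of other genes.

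**Figure D5:**
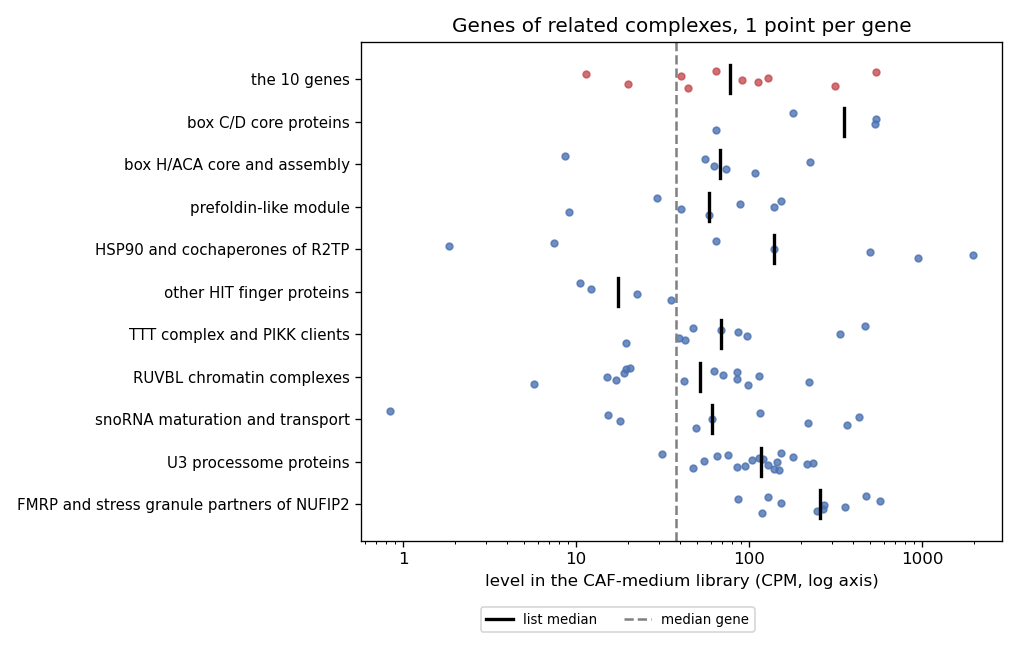
Level in CPM on a log axis of each gene in the set of 10 (red) and in 10 lists of related complexes (blue), 1 point per gene and not scaled by length, with black bars for list medians and a dashed line for the median gene. The medians run from 17.4 CPM for the other HIT-finger genes to 355 CPM for the box C/D core, and that of the set of 10 is 77.6 CPM.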

How the data were processed

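RNA from 14837 cells (2 ug of total RNA per library, per the labels) went into 1 Illumina library for each medium. The submitters' processing notes name HISAT2 2.1.0, StringTie and mm10 without saying what each did; the counting step, the strand setting and the annotation behind the counts are not known from these sources. The authors deposited whole-number counts per gene symbol, and 1 value column with a name that fitted neither library was not used.

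Counts were divided by the column total for CPM. Intervals are exact Poisson (levels) and exact binomial (ratios of 9 pairs) 95% intervals. They were checked only on simulated Poisson counts, which cannot show whether they hold for the deposited counts. Low counts from 3 to 99 were multiples of 3 in 38.7% of entries, against 34.0% of the whole numbers in that span. The 34.0% takes every number in the span as equally frequent, so the gap alone cannot show how the counts were made. Intervals may be too narrow, and they were also computed with counts divided by 3. Lengths, positions and overlaps come from GENCODE M21 (mm10), to which 21900 symbols (99.6%) matched. The longest transcript used as a length is that of any type. For some genes, such as Fbl and Nop56, it is longer than the longest protein-coding one. Coordinates are 1-based. Windows of 64 bases, every 16 bases along the longest protein-coding transcript, were searched on both strands of all other, non-overlapping annotated transcripts.

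The genes, lists and pairs were chosen with earlier results of these data known. Named besides the 10 genes are the 3 highest members of each list, its lowest and those at 0, by CPM, plus Spag1, Uri1, Tulp4, Krt19, Cdh1, Sox9, Tti2, Prkdc, Actl6a and Vps72, chosen after their values were seen. The coding length was added after the annotation was seen, and for the lists after their levels were seen. Of the lists, Dpcd and 10 snoRNA host genes without a protein were not analysed here. Tools were Python 3.11.15 with scipy 1.17.1, numpy 2.4.6, Biopython 1.88, pandas 2.3.3 and matplotlib 3.10.9.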

Additional observations from a re-analysis of the deposited data

How the results depend on the processing

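Dividing counts by 3 cannot change a ratio. It widened the intervals of the 9 ratios and left the same number of neighbours undistinguished. The length scale changed more. Per kilobase of coding sequence, a scale added after seeing the annotation, Nufip1 over Znhit3 came to 0.696, Nufip1 over Nufip2 to 0.207, Rpap3 over Pih1d1 to 1.55, Nop58 over Fbl to 5.12, Nop58 over Nop56 to 1.1, Fbl over Snu13 to 0.14 and Ruvbl1 over Rpap3 to 3.26. Per kilobase of the longest transcript the same 7 ratios were 0.56, 0.183, 1.84, 2.13, 0.386, 0.309 and 3.05, with 0.23 for Nufip1 over Znhit6 and 0.972 for Ruvbl1 over Ruvbl2. Per kilobase of all exons, in the same order of 9, they were 1.2, 0.206, 2.21, 3.28, 0.386, 0.249, 3.82, 0.262 and 1.08. The order of the 10 genes then differed from that by CPM at 3 places per kilobase of coding sequence and at 6 per kilobase of the longest transcript, where 3 pairs of neighbours did not differ beyond counting error. These scales differ only in the length by which the same counts were divided. The number of genes above the median gene was 8 of 10 in protein-coding genes and per kilobase of coding sequence, 9 per kilobase of the longest transcript, 10 over all entries, 6 over those of 100 counts or more and 6 of 8 without Fbl and Ruvbl1. The median itself was 0.940 CPM over all entries and 50.9 CPM over those of 100 counts or more. By definition, no more than 50% of the entries behind a median exceed it, so 6 of 10 is near that share. On the coding scale the number above the median moved by over 1.5 times in 2 of 10 lists, to 2 of 9 for TTT and PIKK genes and to 1 of 4 for other HIT-finger genes. Leaving out the 100 highest genes raised every CPM 1.16 times, and leaving out mitochondrial genes 1.01 times. Of 11 medians, counting that of the 10 genes, 2 moved by over 1.5 times without genes of shared windows and 1 with at least 100 counts required. No replicate could be left out, and the spread between cultures is unknown.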
